A study of Danio rerio with 6 samples.

Results

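The cells described here are plvapb-positive vessel endothelial cells of the adult zebrafish ventricle, 196 of the 69400 deposited cell barcodes. They were chosen by their own counts of unique molecular identifiers (UMIs, 1 per captured RNA molecule). A barcode needed at least 500 UMIs, at least 200 genes and at most 30% mitochondrial UMIs, which 65395 barcodes met. It then needed at least 2 UMIs of plvapb and at least 1 UMI of the endothelial genes cdh5, kdrl, tie1 or clec14a. It could carry at most 1 UMI summed over spock3 and aqp8a.1, and no UMI of mpeg1.1, a macrophage gene, or itga2b, a thrombocyte gene. The levels of these 9 genes, and all other differences between the chosen cells and other cells of the same libraries, are therefore descriptions and carry no test.

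Endothelium of the zebrafish ventricle lies in separate compartments. Coronary and other vessels run through the muscle wall and its surface, and the endocardium lines the inner trabeculae. plvapb encodes plasmalemma vesicle associated protein, which forms the diaphragms of fenestrae and caveolae, the openings and membrane pits through which vessel walls exchange fluid and solutes. The other chosen genes mark endothelium in general: cdh5 encodes VE-cadherin of the cell junctions, kdrl a receptor for VEGF, tie1 a receptor tyrosine kinase and clec14a a surface lectin. After amputation of the ventricular apex, coronary vessels grow into the injured tissue within days, and their growth is known to be needed for regeneration of the muscle.

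The series has 6 libraries of cells sorted as single nucleated cells, each from 15 pooled ventricles, from clofv087b/+ fish and from wild-type (WT) fish. clofv087b/+ fish are heterozygous for the fv087b allele of cloche, the npas4l locus, which encodes a transcription factor at the start of the blood and vessel lineages in the embryo. Each genotype was sampled as sham, at 3 days and at 7 days post amputation (dpa). The libraries named sham carry "untreated" as their treatment label. All comparisons of single libraries are without a replicate.

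The cells numbered 51, 13 and 59 in clofv087b/+ sham, 3 dpa and 7 dpa, and 19, 27 and 27 in WT sham, 3 dpa and 7 dpa. Together they held 1107390 UMIs, with 75355 in the smallest sum, clofv087b/+ 3 dpa, and 305425 in the largest, clofv087b/+ sham. Their median depth lay between 2804 UMIs per cell (clofv087b/+ 7 dpa) and 5600 (clofv087b/+ sham). Their median mitochondrial share was 1.74, 6.40 and 3.54% in clofv087b/+ sham, 3 dpa and 7 dpa, and 1.53, 6.28 and 3.42% in WT, so that it was highest at 3 dpa in both genotypes. A doublet score flagged 15 of the 196 cells. Pairs of libraries shared between 23 and 60 barcode sequences, none of them among the 196 cells of both. All intervals below are exact 95% intervals of counting error alone and leave out how far cells, fish and libraries vary.

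**Figure D1:**
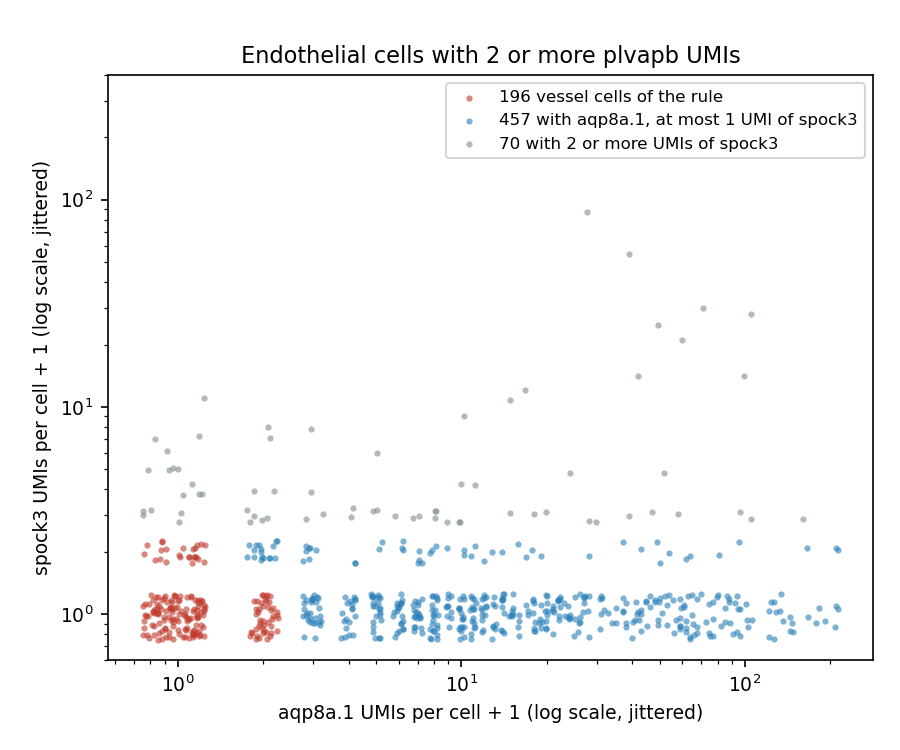
Each point is 1 of the 723 endothelial cells with at least 2 plvapb UMIs, plotted by its aqp8a.1 UMIs (x axis) and spock3 UMIs (y axis), each plus 1 on a log scale with jitter. The 196 vessel cells sit in the lower left corner, and the 457 cells left out through aqp8a.1 stretch to the right at 0 or 1 UMI of spock3.

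At the edges of the rule, 45 of the 196 cells had exactly 2 plvapb UMIs, and 120 endothelial barcodes met every other condition with 1. Of the chosen cells, 125 carried no UMI of spock3 or aqp8a.1 and 71 carried 1. The limit on the endocardial genes removed more plvapb-positive endothelium than it kept. Of 723 endothelial barcodes with at least 2 plvapb UMIs, 527 exceeded it, and 457 of those had at most 1 spock3 UMI and exceeded it through aqp8a.1, an aquaporin, with a median of 11 UMIs. In 394 of these 457 cells spock3 was not counted at all. Summed over the 527 cells, aqp8a.1 stood at 4579 CPM (counts per 1e6 UMIs), near its 4674 CPM in endocardial cells. spock3, a proteoglycan gene, stood at 173 CPM in the 527 cells and 3183 CPM in endocardial cells, and the coagulation factor gene f8 at 79.4 against 2561 CPM. plvapa, a second gene of this family that the rule did not use, stood at 327 CPM in the chosen cells, 823 CPM in the 527 cells and 19.0 CPM in endocardial cells. The chosen cells are thus the aqp8a.1-poor part of the plvapb-positive endothelium. A wider set of 653 cells, which drops the limit on aqp8a.1 and keeps the one on spock3, is given beside them below. It was added after the data had been seen.

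The label vessel endothelium was checked against genes that the rule did not use. As a reference, 5921 endocardial barcodes were taken from the same libraries by the same limits, with at least 2 UMIs of spock3 and aqp8a.1 and at most 1 of plvapb. plvapb itself, which chose the cells, stood at 1447, 796 and 1276 CPM in vessel cells of clofv087b/+ sham, 3 dpa and 7 dpa. In WT vessel cells it stood at 1444, 2125 and 809 CPM, while no endocardial sum exceeded 12.3 CPM. No UMI of plvapb was found in 206 erythrocyte barcodes, which by the limit of 3 counts for a count of 0 allows a share of up to 1.46%. Of these barcodes 89 and 62 came from clofv087b/+ and WT 7 dpa and 1 from clofv087b/+ 3 dpa, so free plvapb RNA was hardly tested there. pecam1, the endothelial adhesion gene also called CD31, stood at 195 CPM in the vessel cells and 55.6 CPM in the endocardial cells. Its UMIs numbered 53, 18 and 63 in vessel cells of clofv087b/+ sham, 3 dpa and 7 dpa, and 18, 24 and 40 in WT. The vessel cells were higher in all 6 libraries, by 1.06 to 2.19 on the log2 scale. sox18, a transcription factor of vessel and lymphatic endothelium, was scarcer, with 19.9 against 3.57 CPM. fli1a (190 against 169 CPM) and tek (48.8 against 50.7 CPM) had no one direction over the libraries, and egfl7 stood at 122 CPM in vessel cells and 212 CPM in endocardial cells. erg was nearly absent from both. The endocardial gene nfatc1 stood at 17.2 against 46.0 CPM. Genes of lymphatic vessels and of heart muscle set apart 2 small subsets, described below.

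Genes of caveolae, transport and cell junctions were among those that separated vessel cells most from endocardial cells. Ranked by the library in which the ratio was smallest, with 10 CPM added, the leading gene was aoc2, an amine oxidase, at 467 CPM in vessel cells and 44.9 CPM in endocardial cells. Its log2 ratio lay between 2.82 and 3.29 over the 6 libraries, the narrowest range of the genes named here from that ranking. The second plasmalemma vesicle gene, plvapa, stood at 327 against 19.0 CPM (1.88 to 5.06). cavin1b, a coat protein of caveolae, stood at 768 against 101 CPM (2.16 to 3.54). Its partner cav1, the caveolin that shapes these pits, differed less, with 685 against 412 CPM (0.07 to 2.14). cldn5b, a claudin of endothelial tight junctions, stood at 521 against 33.0 CPM, and pcdh17, a protocadherin, at 118 against 3.57 CPM. All of these were higher in vessel cells in each library.

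Several ligand, integrin and collagen genes were also higher in vessel cells. pdgfbb, a ligand that recruits mural cells to vessels, stood at 307 CPM in vessel cells and 20.2 CPM in endocardial cells. jag2b, a Notch ligand, stood at 85.8 against 15.7 CPM. itga6b, a subunit of laminin-binding integrins, stood at 72.2 against 5.55 CPM. The basement membrane collagens col4a1 and col4a2 are laid down by vessel cells beneath themselves, and col4a1 stood at 716 against 273 CPM. Of transcriptional regulators, bcl6b (237 against 12.2 CPM), hlx1 (116 against 10.7 CPM), ldb2a (374 against 41.2 CPM), meox1 (144 against 18.2 CPM) and the BMP target id1 (2173 against 571 CPM) were higher. The others of the 15 leading genes were gig2j, the GTPase gene rab11bb, rgcc, a regulator of the cell cycle, the endocytosis gene ehd4 and lyve1a, a relative of the lymphatic hyaluronan receptor.

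**Figure D2:**
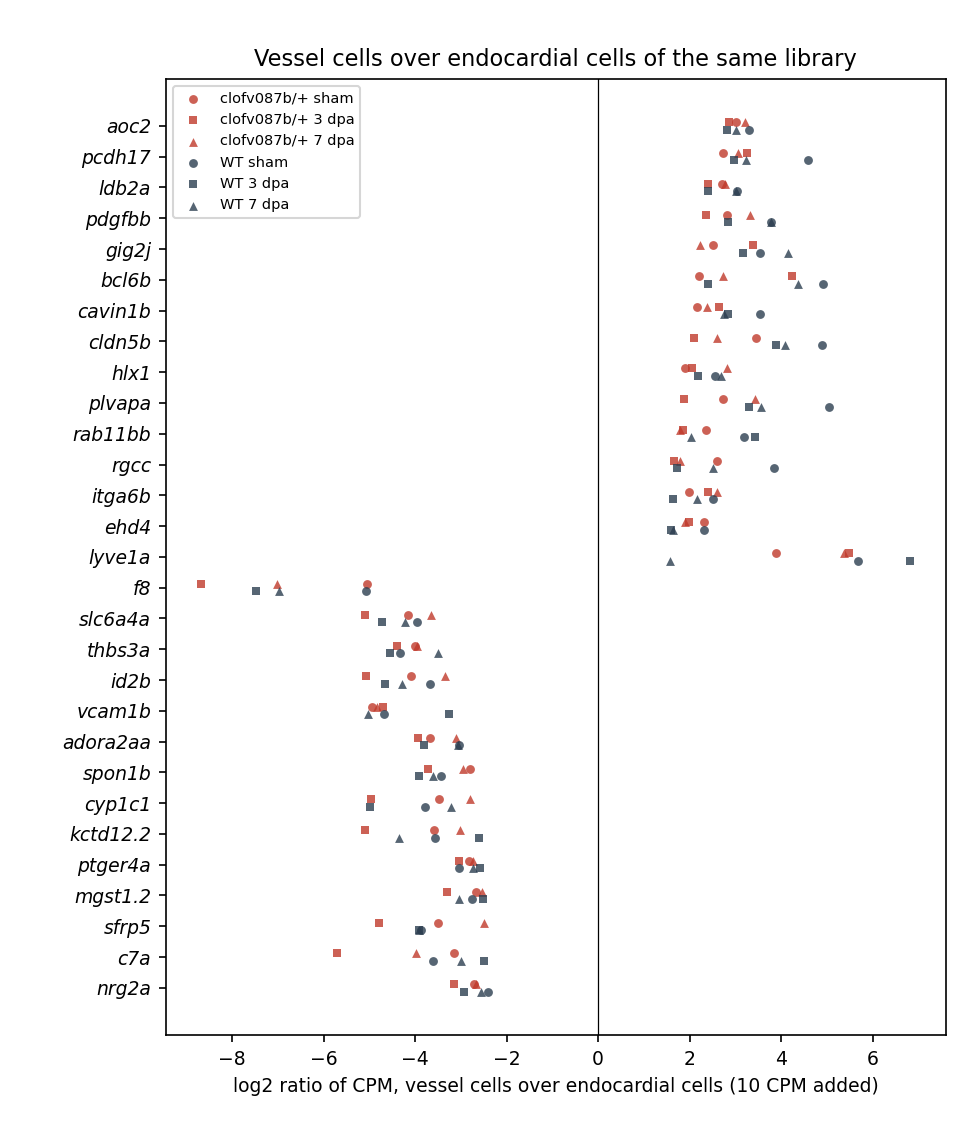
The x axis gives the log2 ratio of CPM in vessel cells over endocardial cells of the same library (10 CPM added) for the named genes, with 1 point per library, colour for genotype and shape for stage. Points right of 0 are higher in vessel cells, where aoc2 spans 2.82 to 3.29, and f8 spans -8.67 to -5.05 on the left.

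In the other direction, f8, the gene of coagulation factor VIII, stood at 30.7 CPM in vessel cells against 2561 CPM in endocardial cells, with a log2 ratio between -8.67 and -5.05. slc6a4a, the serotonin transporter, was counted once in all vessel cells and stood at 171 CPM in endocardial cells. vcam1b, a leukocyte adhesion gene, stood at 5.42 against 367 CPM, id2b at 28.0 against 522 CPM, and the thrombospondin gene thbs3a at 4.52 against 214 CPM. No UMI of adora2aa, an adenosine receptor, ptger4a, a prostaglandin receptor, or nrg2a, a neuregulin, was counted in the 196 cells. Their endocardial levels were 85.0, 61.4 and 50.9 CPM. The rest of the 15 were spon1b, cyp1c1, kctd12.2, mgst1.2, sfrp5, the complement gene c7a and 1 clone-named gene.

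Coagulation genes were lower in vessel cells beyond f8. vwf, von Willebrand factor, stood at 76.8 CPM in vessel cells and 350 CPM in endocardial cells, and tfpia, an inhibitor of tissue factor, at 82.2 against 382 CPM. Notch receptor notch1b was also lower, at 95.7 against 323 CPM. Arterial and venous genes did not place the cells on one side. The arterial ligand genes dll4 and efnb2a stood at 226 and 84.0 CPM in vessel cells, against 297 and 20.0 CPM in endocardial cells. The venous genes aplnra, ephb4a and nr2f2 stood at 97.5, 38.8 and 78.6 CPM, against 18.9, 14.7 and 58.7 CPM. The arterial genes gja5b, hey2 and sox17 had at most 3 UMIs each in all 196 cells.

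npas4l itself, the gene at the cloche locus, had 0 UMIs in all 196 vessel cells, so its level could not be compared between genotypes there and checks no label. etv2, a vascular transcription factor that acts downstream of npas4l in the zebrafish embryo, was detected. It had 30, 17 and 32 UMIs in clofv087b/+ sham, 3 dpa and 7 dpa, and 10, 23 and 8 UMIs in WT. These are 98.2, 226 and 109 CPM in clofv087b/+ and 98.9, 159 and 42.9 CPM in WT, and both genotypes were highest at 3 dpa. etv2 was higher in vessel cells than in endocardial cells in each library, by 1.02 to 2.47 on the log2 scale. In the fit described below its genotype effect was 0.68 (SE 0.46, edgeR adjusted p = 0.999) and its 3 dpa effect 0.69 (SE 0.56, edgeR adjusted p = 0.533). Over the wider set of cells the 3 dpa effect of etv2 was 1.49 (SE 0.33, edgeR adjusted p = 0.040).

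The 196 cells fell into 5 subsets when clustered on their own without the genes of the rule. Since the clusters were made from these cells, their leading genes are a description. Subset 1, with 107 cells, was the largest in every library except clofv087b/+ 3 dpa. It was led among named genes by rbp4, the plasma retinol carrier, the ammonium transporter gene rhag, gpd1b and krt91, a keratin, but rbp4 was counted in 20.6% of its cells and rhag in 16.8%. Subset 2, with 39 cells, was led by proliferation genes (mki67, rrm2 and pcna), by apln, the ligand of sprouting tip cells (569 CPM, against 41.4 CPM in the other cells), and by bcl6b (855 against 89.4 CPM). mki67 was counted in 10.3% of the cells of subset 2, and apln in 56.4%. Their median mitochondrial share was 7.37%, against 2.22% in subset 1. Subset 1 held 34, 4 and 35 cells in clofv087b/+ sham, 3 dpa and 7 dpa, and 12, 9 and 13 in WT. Subset 2 held 2, 6 and 12 cells in clofv087b/+, and 3, 8 and 8 in WT.

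Subset 3, with 25 cells, carried genes of lipid and retinoid handling. lpl, lipoprotein lipase, stood at 3081 CPM against 75.5 CPM in the other cells, and was counted in 88.0% of the subset. The retinol binding genes rbp2a and rbp7b stood at 14382 against 431 CPM and 563 against 16.7 CPM. esm1, a tip cell gene, led the list at 1046 against 11.8 CPM, but only 24.0% of the cells carried it. plvapa (1092 CPM) and meox1 (621 CPM) had their highest levels here among the 5 subsets. Subset 3 held 10, 0 and 6 cells in clofv087b/+ sham, 3 dpa and 7 dpa, and 2, 3 and 4 in WT.

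Subset 4, with 13 cells, was lymphatic-like. Lymphatic vessels drain fluid and are set up in the embryo by the transcription factor Prox1. prox1a stood at 324 CPM, with no UMI in subsets 1 to 3. lyve1b stood at 324 CPM, mrc1a at 386 CPM, stab2 at 898 CPM and flt4, the receptor for VEGF-C, at 460 CPM. The leading genes were cdh6, a cadherin (1964 against 0.988 CPM), akap12a and cxcl12a, a chemokine gene that all 13 cells carried at 3583 CPM against 38.6 CPM in the other cells. hapln3 and hyal2b, genes of hyaluronan binding and breakdown, followed. These 13 cells had 243 UMIs of plvapb, at 2538 CPM the highest level of the 5 subsets. They had 0 UMIs of cdh5 and 0 of plvapa, and so met the rule through kdrl, tie1 or clec14a. For these 13 cells the data therefore go against a blood vessel identity. They held 5.18 and 17.4% of the vessel cells' UMIs in clofv087b/+ sham and 3 dpa, 12.4 and 37.4% in WT sham and 3 dpa, and none at 7 dpa.

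**Figure D3:**
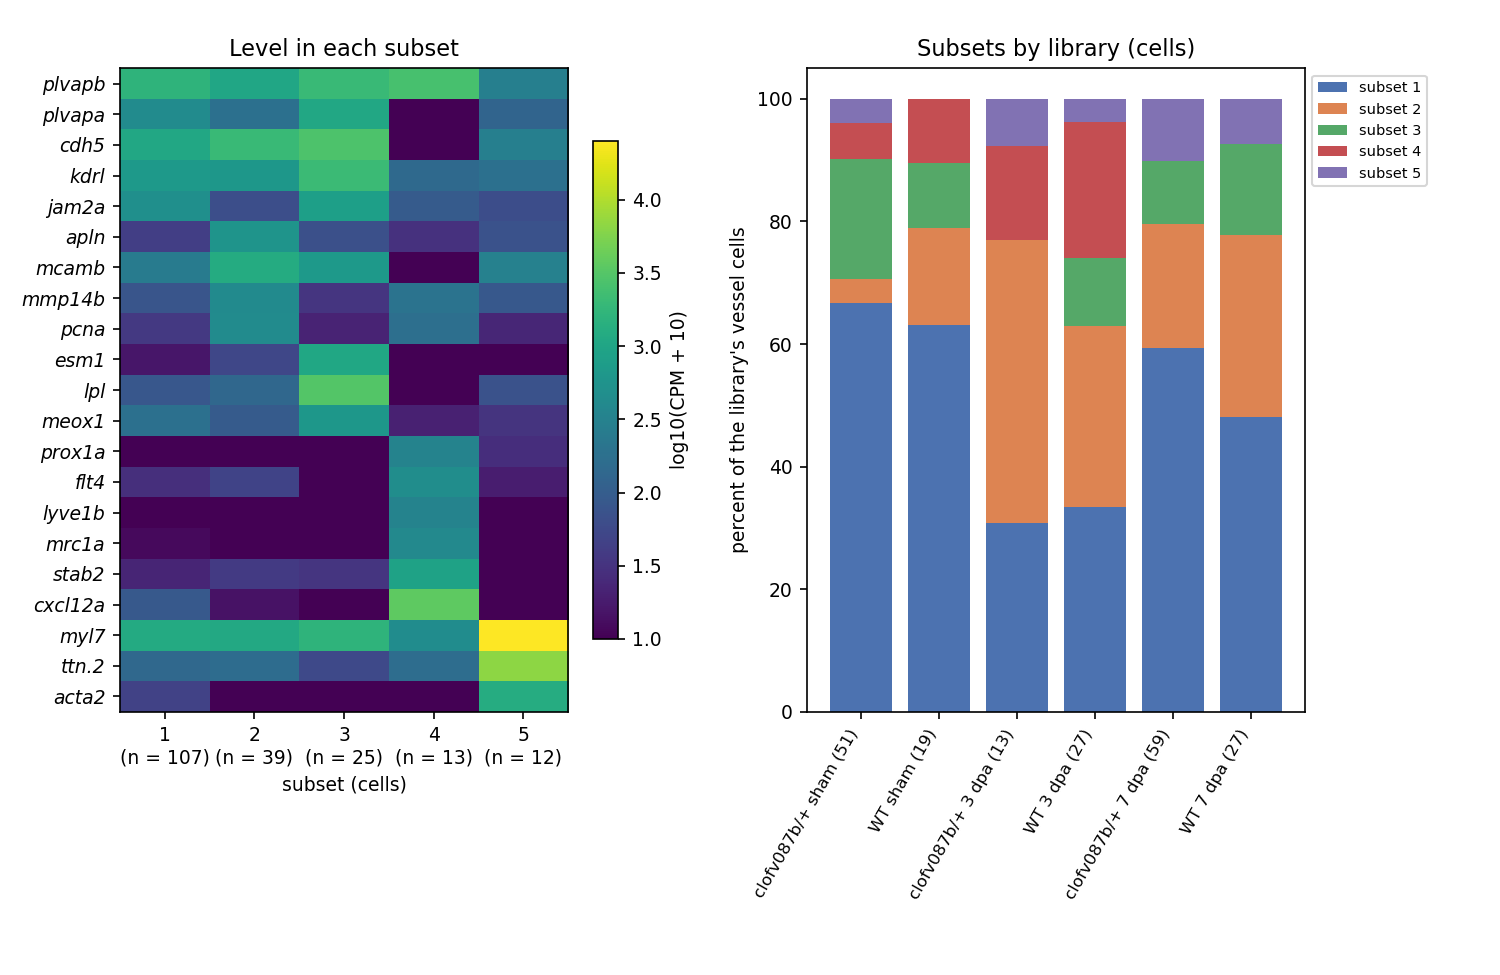
The left panel gives the level of chosen genes in each of the 5 subsets as log10 of CPM plus 10, and the right panel gives the percent of each library's vessel cells in each subset, with the number of cells in brackets. The lymphatic genes are high in subset 4, the muscle genes in subset 5, and no cell of either 7 dpa library falls in subset 4.

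The lymphatic-like cells came from 4 of the 6 libraries, with 3, 2 and 0 cells in clofv087b/+ sham, 3 dpa and 7 dpa, and 2, 6 and 0 in WT. Endothelial barcodes with at least 2 of 5 lymphatic genes (prox1a, lyve1b, flt4, mrc1a and stab2) but no plvapb UMI were present in every library. In clofv087b/+ 3 dpa this was 1 barcode. No other lymphatic criterion was applied, and flt4 and stab2 were also counted in subsets 1 and 2. Among all endothelial barcodes, at least 2 of the 5 lymphatic genes were found in 19, 4 and 10 barcodes of clofv087b/+ sham, 3 dpa and 7 dpa, or 1.07, 0.566 and 0.462%. They were found in 6, 17 and 22 barcodes of the WT libraries, or 0.281, 2.26 and 0.812%. Of these 22 barcodes in WT 7 dpa, 18 had no plvapb UMI, and so did all 10 in clofv087b/+ 7 dpa. A further 2 of the 22 had at least 2 plvapb UMIs but exceeded the limit on spock3 and aqp8a.1. At the other stages 12 of 19 and 1 of 4 had no plvapb UMI in clofv087b/+ sham and 3 dpa. In WT sham and 3 dpa it was 4 of 6 and 10 of 17. Summed over the list of lymphatic genes, erythrocyte barcodes, a background for free RNA, stood at 4.97 CPM.

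Subset 5, with 12 cells, carried the genes of heart muscle cells. ttn.2, a titin gene, stood at 6563 against 130 CPM, and myh7l, a myosin heavy chain gene, at 25739 against 662 CPM. The doublet score flagged 9 of these 12 cells, and their median depth was 16988.5 UMIs, against 4253 in subset 1. They held plvapb at 287 CPM and cdh5 at 283 CPM. The subset had 2, 1 and 6 cells in clofv087b/+ sham, 3 dpa and 7 dpa, and 0, 1 and 2 in WT. These cells held 16.3, 14.9 and 38.2% of the vessel cells' UMIs in clofv087b/+, and 0, 15.7 and 16.1% in WT. All 9 genes of the cardiomyocyte marker list that were tested were detected in vessel cells. Their summed level was 22280, 15341 and 37712 CPM in clofv087b/+ sham, 3 dpa and 7 dpa, and 4410, 22824 and 17260 CPM in WT. Outside subset 5 it was 1924 to 5196 CPM in the clofv087b/+ libraries and 3849 to 4756 CPM in the WT libraries. Macrophage markers summed to at most 1559 CPM and thrombocyte markers to at most 225 CPM in any library, with 3 of the 6 thrombocyte genes (mpl, gp1bb and gfi1b) at 0. Erythrocyte markers summed to between 178 and 813 CPM, with 2 of 6 (alas2 and slc4a1a) at 0, and lymphocyte markers to at most 9.89 CPM, with 9 of 11 at 0.

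The share of vessel cells among all barcodes past the quality limits was compared between genotypes, to ask whether the heterozygous cloche allele went with another abundance of these cells. In clofv087b/+ it was 0.566% at sham (0.422 to 0.743%), 0.145% at 3 dpa (0.0770 to 0.247%) and 0.418% at 7 dpa (0.318 to 0.539%). In WT it was 0.166% at sham (0.100 to 0.260%), 0.297% at 3 dpa (0.196 to 0.432%) and 0.212% at 7 dpa (0.140 to 0.308%). The clofv087b/+ share was thus above the WT share at sham and at 7 dpa and below it at 3 dpa. The log2 ratio of clofv087b/+ over WT was 1.77 at sham (0.98 to 2.61), -1.04 at 3 dpa (-2.12 to -0.03) and 0.98 at 7 dpa (0.30 to 1.70). Outside the lymphatic-like subset the ratio was 1.84 (1.02 to 2.73), -0.92 (-2.12 to 0.20) and 0.98 (0.30 to 1.70), so that the interval at 3 dpa included 0. Over the 3 stages the ratio of all 196 cells averaged 0.57 ± 1.45 (SD, n = 3), with p = 0.75 in a two-sided exact sign permutation test, which cannot go below 0.25 with 3 pairs. In numbers of cells, fewer vessel cells in the tissue and fewer that survived digestion, sorting and the limits cannot be told apart.

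**Figure D4:**
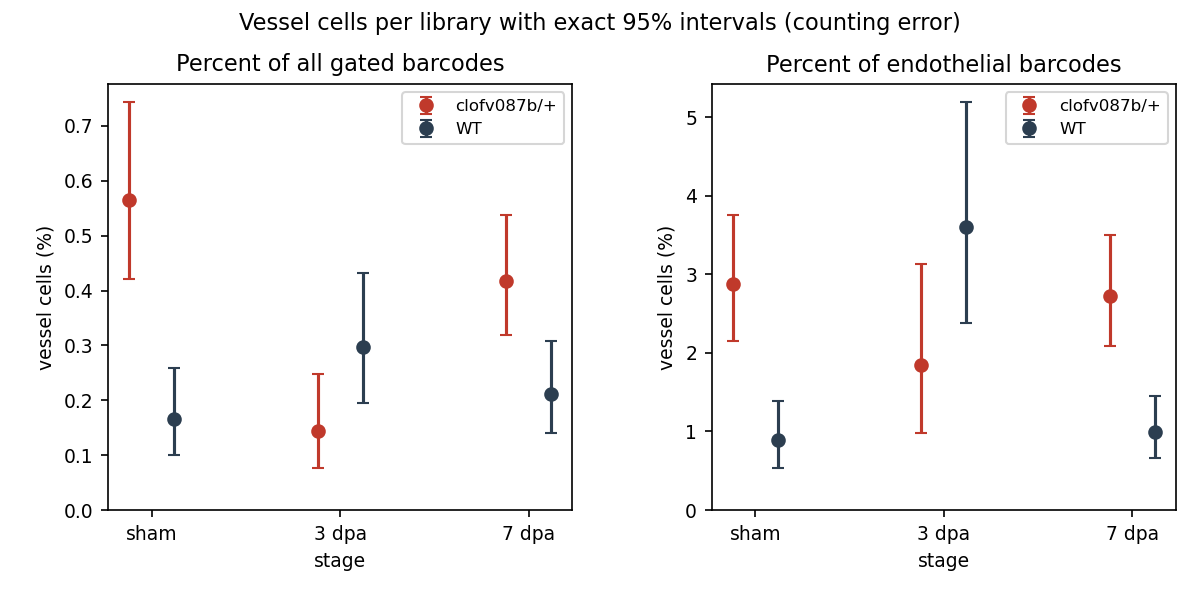
Points give vessel cells as a percent of all quality-passed barcodes (left) and of endothelial barcodes (right) by stage in each library, and bars are exact 95% intervals for counting error. The clofv087b/+ value lies above the WT value at sham and 7 dpa and below it at 3 dpa in both panels.

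Within genotypes, the log2 ratio of 3 dpa over sham was -1.97 (-2.97 to -1.07) in clofv087b/+ and 0.84 (-0.06 to 1.76) in WT, where the interval included 0. With aqp8a.1 allowed both were negative, at -2.65 (-3.30 to -2.04) in clofv087b/+ and -0.30 (-0.80 to 0.20) in WT. For 7 dpa over sham it was -0.44 (-1.003 to 0.13) in clofv087b/+ and 0.35 (-0.55 to 1.28) in WT. Endothelial barcodes as a whole were fewer at 3 dpa in both genotypes, with 1776, 707 and 2164 in clofv087b/+ sham, 3 dpa and 7 dpa, and 2134, 751 and 2709 in WT. Of the endothelial barcodes, vessel cells made up 2.87, 1.84 and 2.73% in clofv087b/+ sham, 3 dpa and 7 dpa, and 0.890, 3.60 and 0.997% in WT. On that base the 3 dpa over sham ratio was -0.64 (-1.65 to 0.26) in clofv087b/+ and 2.01 (1.11 to 2.94) in WT. The rule reads UMIs, so depth enters the share, and thinning every barcode to 1000 UMIs before the rule gave ratios of clofv087b/+ over WT of 1.53, -1.77 and 0.90 at sham, 3 dpa and 7 dpa. The ratios of the wider set had the same signs, at 1.23 (0.85 to 1.62), -1.12 (-1.85 to -0.42) and 0.41 (0.08 to 0.75). The interval of the 3 dpa ratio included 0 with at least 1000 UMIs per barcode (-0.89), with at most 10% mitochondrial UMIs (-1.01), with no UMI of spock3 and aqp8a.1 allowed (-0.98) and over endothelial barcodes (-0.97). The interval of the 7 dpa ratio included 0 with at least 3 plvapb UMIs (0.68) and with no UMI of spock3 and aqp8a.1 (0.77).

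For gene expression, UMIs were summed over the vessel cells of each library, and 2076 genes passed edgeR's filter on low counts. A model with genotype and stage as additive terms was fitted to the 6 sums, so that the stages paired the genotypes and the spread was what this model left. No gene passed an adjusted p of 0.05 for the effect of genotype, clofv087b/+ over WT, in edgeR's quasi-likelihood test, 0% of those tested, and 92 had an unadjusted p under 0.05. DESeq2 also called 0, with 42 at an unadjusted p under 0.05, and in the wider set edgeR called 0 of 5746, with 224. Leaving out either 3 dpa library leaves that stage with 1 library, which its own stage term fits exactly. Those counts are therefore not read as evidence of a genotype effect. Leaving out both 3 dpa libraries gave 0 calls.

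Without calls, the genes with the largest ratio of one sign at all 3 stages are given as values. tnni1d, a troponin I gene of muscle, had 24, 4 and 26 UMIs in clofv087b/+ sham, 3 dpa and 7 dpa, and 1, 0 and 1 in WT. Its effect was 3.93 (SE 0.85, edgeR adjusted p = 0.999), with 42.9% of its UMIs in 1 cell. ldb3b, a gene of the muscle Z disc, had 39, 15 and 49 UMIs in clofv087b/+ and 3, 11 and 9 in WT. pabpc4, a poly(A) binding protein gene, had 102, 27 and 126 UMIs in clofv087b/+ and 4, 25 and 34 in WT. All 9 cardiomyocyte markers tested had a positive genotype effect, with a median of 1.00 against -0.04 over all genes tested, and of -0.12 outside subset 5; the part of muscle RNA in the higher genes was not tested. In the other direction, arhgap27l had 16, 5 and 14 UMIs in clofv087b/+ and 14, 20 and 18 in WT. vim, the intermediate filament gene vimentin, had 9, 0 and 20 UMIs in clofv087b/+ and 7, 2 and 41 in WT, 46.8% of them in 1 cell, and its sign turned in the wider set (0.26) and with at least 3 plvapb UMIs (0.58).

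By list, pan-endothelial genes had a median genotype effect of -0.18, with 7 of 21 positive, fenestra and caveola genes -0.17, with 1 of 6 positive, and the npas4l-related and vascular transcription factors 0.14, with 4 of 7 positive. Sprouting genes stood at 0.04 and VEGF receptors and co-receptors at -0.54, on 3 tested genes. Basement membrane and matrix genes stood at -0.38, with 0 of 7 positive, and lymphatic genes at -0.54, with 2 of 7 positive. The cell cycle list stood at -1.13, with 0 of 8 positive. None of these genes passed the threshold. None passed in the wider set either. Basement membrane and matrix genes stood at 0.07 there, with 8 of 13 positive, and lymphatic genes at -0.03, with 3 of 6 positive. Pan-endothelial genes and VEGF receptors and co-receptors both stood at -0.02 in that set. Its fenestra and caveola genes stood at -0.27, with 1 of 8 positive, and its cell cycle list at -0.51, with 1 of 10 positive.

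Amputation was examined as 3 dpa over sham. No gene passed 0.05 in edgeR's test, 0% of 2076, with 378 at an unadjusted p under 0.05. DESeq2 called 51, 2.46%, of which 7 were higher and 44 lower, with 256 at an unadjusted p under 0.05. In the wider set edgeR called 223 of 5746 genes, 3.88%, with 86 higher and 137 lower. Both injured stages share the sham libraries, so their effects are not independent of each other.

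Immediate early genes, which cells switch on within minutes of a stimulus, were at their highest in the sham vessel cells. fosab had 6080, 2375 and 2481 CPM in clofv087b/+ sham, 3 dpa and 7 dpa, and 7109, 1994 and 3337 CPM in WT. jun had 3399, 1088 and 1610 CPM in clofv087b/+ and 3876, 1221 and 1859 CPM in WT. btg2, an antiproliferative gene of the same early class, had 2551, 571 and 898 CPM in clofv087b/+ and 3154, 828 and 1323 CPM in WT. In each case all 4 injured libraries lay below both sham libraries. The 3 dpa effects were -1.90 for fosab (SE 0.26, edgeR adjusted p = 0.054), -1.95 for jun (SE 0.30, edgeR adjusted p = 0.059) and -2.34 for btg2 (SE 0.34, edgeR adjusted p = 0.054). Of the 20 genes of the list that were tested, 19 were lower at 3 dpa, with a median of -1.41 against 0.13 over all genes, and 15 were lower at 7 dpa, with a median of -1.09 against 0.02. Of the 21 tested in the wider set, 9 fell past the threshold at 3 dpa, among them fosab (-1.40), jun (-1.69), btg2 (-2.11), junba (-1.64), egr1 (-2.08) and socs3a (-1.61). Summed over the list, the vessel cells held 21688, 7816 and 11332 CPM in clofv087b/+ sham, 3 dpa and 7 dpa, against 17439, 17552 and 15284 CPM in endocardial cells of the same libraries. In WT the vessel cells held 26804, 8825 and 13017 CPM, against 22732, 13780 and 19620 CPM in the endocardial cells. Outside subsets 4 and 5 the vessel cells held 23454, 5823 and 12315 CPM in clofv087b/+ and 22788, 9860 and 13809 CPM in WT, with a 3 dpa median of -1.81. By subset, fosab stood at 5035 CPM in subset 1 and 2966 CPM in subset 2. There jun stood at 2898 and 1570 CPM, and btg2 at 2061 and 884 CPM. Subset 1 held 61.7 and 24.9% of the vessel cells' UMIs in clofv087b/+ sham and 3 dpa, and 44.3 and 23.3% in WT. Subset 2 held 1.14 and 42.8% in clofv087b/+, and 34.8 and 20.6% in WT. The part of the mix of subsets in these values was not tested, nor was the difference in course between the cell types. Genes induced by glucocorticoids (median -1.33, 9 of 10 lower) and of the circadian clock (-1.37, 9 of 9 lower) had the same direction at 3 dpa.

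**Figure D5:**
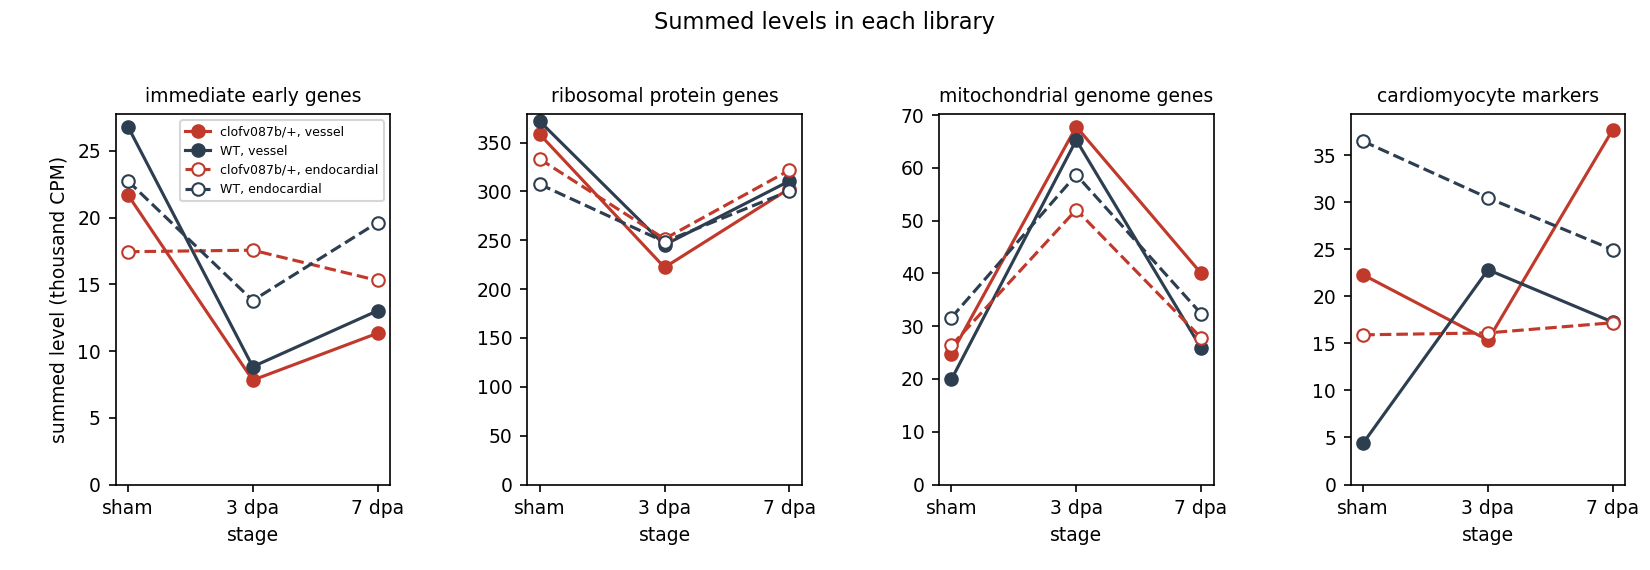
The summed level of 4 gene lists (y axis, CPM divided by 1000) is plotted by stage for vessel cells (filled, solid lines) and endocardial cells (open, dashed lines) of each genotype. In vessel cells of both genotypes, immediate early and ribosomal protein genes are lowest and mitochondrial genes highest at 3 dpa, while the cardiomyocyte markers have no common course.

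Ribosomal protein genes and genes of the mitochondrial genome had opposite signs at 3 dpa. Ribosomal protein genes held 358460, 222200 and 302820 CPM of the vessel cells' RNA in clofv087b/+ sham, 3 dpa and 7 dpa, and 371780, 245240 and 310630 CPM in WT. At 3 dpa 76 of the 78 tested were lower, with a median of -0.95. The 13 mitochondrial genes held 24795, 67799 and 40029 CPM in clofv087b/+ and 19932, 65251 and 25885 CPM in WT, and all 13 were higher at 3 dpa, with a median of 1.31. Outside subsets 4 and 5 the 3 dpa medians were -0.91 for ribosomal and 1.56 for mitochondrial genes. None of either list passed the threshold in the vessel cells, while in the wider set 30 of 79 ribosomal genes fell and 3 of 13 mitochondrial genes rose. The endocardial cells had the same course, with ribosomal protein genes at 251420 against 333140 CPM (3 dpa against sham) in clofv087b/+ and 248440 against 307300 CPM in WT. Their mitochondrial genes stood at 52053 against 26363 CPM in clofv087b/+ and 58672 against 31628 CPM in WT. The mitochondrial share of all quality-passed barcodes was also highest at 3 dpa, and the part of cell or RNA quality in these values was not tested.

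Single genes with the largest ratios at 3 dpa of one sign in both genotypes came next. krt91, a keratin gene and a leading gene of subset 1, had 62, 0 and 81 UMIs in clofv087b/+ sham, 3 dpa and 7 dpa, and 45, 0 and 71 in WT. Against a floor of 3 UMIs per library it was at least 5.10-fold lower at 3 dpa than at sham in clofv087b/+ and at least 21.5-fold lower in WT (edgeR adjusted p = 0.054). rbp2a had 1315, 0 and 168 UMIs in clofv087b/+ and 54, 5 and 149 in WT. It is a leading gene of subset 3, of which clofv087b/+ sham and 3 dpa held 10 and 0 cells. WT sham and 3 dpa held 2 and 3 cells of that subset, and the part of the subset in these values was not tested. cd81b, a tetraspanin gene also leading subset 3, had 74, 2 and 22 UMIs in clofv087b/+ and 25, 2 and 18 in WT. mdkb, which encodes the growth factor midkine, was higher at 3 dpa, with 6, 32 and 2 UMIs in clofv087b/+ and 0, 14 and 5 in WT, an effect of 3.89 (SE 0.94, edgeR adjusted p = 0.099). stat2, a transducer of interferon signals, had 13, 29 and 10 UMIs in clofv087b/+ and 1, 44 and 2 in WT, an effect of 3.36 (SE 0.66, edgeR adjusted p = 0.071). Of these stat2 UMIs, 29 lay in the lymphatic-like subset and 33 in subset 5, against 14, 21 and 2 in subsets 1 to 3. abracl had 13.1, 173 and 20.4 CPM in clofv087b/+ and 0, 96.6 and 75.0 CPM in WT. In the wider set krt91, cd81b (-2.46), mdkb (3.16) and stat2 (2.60) passed the threshold, with edgeR adjusted p of 0.0066, 0.032, 0.024 and 0.0084. stat2 was also higher in endocardial cells at 3 dpa, at 203 against 45.0 CPM (3 dpa against sham) in clofv087b/+ and 253 against 62.7 CPM in WT.

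Among genes of vessel growth, the wider set had 2 calls in its list of 12 sprouting genes. Beside this and the lists below, 3.88% of all genes tested in that set were called at 3 dpa. mmp14b, a membrane protease, rose by 1.93 and esm1 was lower, at -3.11, with edgeR adjusted p of 0.025 and 0.014. flt1, a VEGF receptor that also acts as a decoy, was lower at -1.72 (edgeR adjusted p = 0.025). Of 7 genes tested there in the list of VEGF receptors and co-receptors, 6 were higher and 1 lower, with a median of 1.295. In the 196 cells 1 of 3 was higher, with a median of -0.44. In the 196 cells flt1 had 239, 53.1 and 136 CPM in clofv087b/+ sham, 3 dpa and 7 dpa and 356, 20.7 and 220 CPM in WT, with both 3 dpa libraries below the other 4. The effect was -3.40 (SE 0.64, edgeR adjusted p = 0.071). By subset, flt1 stood at 690 CPM in subset 3 and had 0 UMIs in the lymphatic-like subset. Subset 3 held 15.7 and 0% of the vessel cells' UMIs in clofv087b/+ sham and 3 dpa. In WT it held 8.48 and 2.85%. The part of the mix of subsets in the flt1 values was not tested. mmp14b had 13, 20 and 24 UMIs in clofv087b/+ and 11, 46 and 45 in WT. rgcc, one of the vessel genes above, had 792, 451 and 582 CPM in clofv087b/+ and 1681, 366 and 675 CPM in WT. Its effect was -1.84 in the 196 cells (SE 0.47, edgeR adjusted p = 0.103) and -1.56 in the wider set (SE 0.33, edgeR adjusted p = 0.034). Glycolysis and hypoxia genes had a median of 1.24, with 9 of 10 higher, and none passed in the 196 cells. Their summed level was 4361, 6954 and 5561 CPM in clofv087b/+ sham, 3 dpa and 7 dpa, and 1977, 4002 and 3632 CPM in WT. Outside subset 5 it was 1380, 5443 and 2066 CPM in clofv087b/+ and 1977, 2743 and 2911 CPM in WT. All 9 cardiomyocyte markers tested were also higher at 3 dpa, with a median of 0.93, and of 0.16 outside subset 5. In the wider set glycolysis and hypoxia genes had a median of 0.62, with 12 of 16 higher. Past the threshold, 2 of them rose and 1 fell. Cardiomyocyte markers had a median of -0.73 in that set, with 8 of 9 lower, 1 of them past the threshold. The part of muscle RNA in the glycolysis values was not tested. The 7 MHC and antigen presentation genes tested were all lower in the 196 cells (median -0.97), and in the wider set 1 of 14 rose and 1 fell past the threshold.

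Cycling cells were counted after each vessel cell had been thinned to 1000 UMIs, by a minimum of 2 UMIs over 30 genes of the cell cycle. The share was 16.3% (8 of 49 cells; 7.32 to 29.7%), 46.2% (6 of 13; 19.2 to 74.9%) and 8.77% (5 of 57; 2.91 to 19.3%) in clofv087b/+ sham, 3 dpa and 7 dpa. In WT it was 36.8% (7 of 19; 16.3 to 61.6%), 40.7% (11 of 27; 22.4 to 61.2%) and 19.2% (5 of 26; 6.55 to 39.4%). Unthinned, the shares were 76.5, 69.2 and 45.8% in clofv087b/+ and 73.7, 63.0 and 51.9% in WT. Erythrocyte barcodes had 3.88% after thinning (median 4630.5 UMIs). Endocardial cells had 18.3, 28.7 and 18.7% in clofv087b/+ sham, 3 dpa and 7 dpa, and 17.1, 36.5 and 17.3% in WT. The list's level in vessel cells was 580, 3543 and 453 CPM in clofv087b/+ and 1206, 3167 and 2577 CPM in WT. Outside the lymphatic-like subset it was 577, 3856 and 453 CPM in clofv087b/+ sham, 3 dpa and 7 dpa, and 1230, 1654 and 2577 CPM in WT. The clofv087b/+ level was thus highest at 3 dpa with or without that subset, and the WT level was highest at 3 dpa with it and at 7 dpa without it. The shares outside it were 17.4, 45.5 and 8.77% in clofv087b/+ and 35.3, 33.3 and 19.2% in WT. Without hmgb2a and hmgn2, chromatin genes that cells also use outside the cell cycle, the level over all 196 cells was 62.2, 1473 and 74.9 CPM in clofv087b/+ and 326, 524 and 1039 CPM in WT. Without these genes the share was 0% (0 of 49, upper bound 7.25%), 23.1% (3 of 13) and 3.51% (2 of 57) in clofv087b/+, and 0% (0 of 19, upper bound 17.6%), 11.11% (3 of 27) and 3.85% (1 of 26) in WT. Unthinned and without these genes, 2 of 27 cells of WT 7 dpa had at least 2 UMIs of the list, against 6 of 27 of WT 3 dpa. The 1039 CPM of WT 7 dpa thus came mostly from few cells. Of mki67 UMIs, 79.3% lay in 1 cell. All 8 cell cycle genes tested were higher at 3 dpa (median 2.00), and none passed the threshold.

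At 7 dpa over sham, 3 genes passed 0.05 in edgeR's test, 0.145% of 2076, with 165 at an unadjusted p under 0.05. They were cxcl12a, which fell, and acta2 and 1 clone-named gene, which rose. DESeq2 called 7, 0.337%, of which 3 were higher and 4 lower. The wider set had 7 calls of 5746, 0.122%, all higher. None of the 3 calls remained when likely doublets, the lymphatic-like subset, subset 5 or cells above 10% mitochondrial UMIs were left out, each giving 0 calls. In the settings given next, the folds of cxcl12a and acta2 kept their signs. No fold is given for cxcl12a outside the lymphatic-like subset, which held 343 of its UMIs. None is given for acta2 without likely doublets or outside subset 5, which held 289 of its UMIs. cxcl12a was at -4.82 without likely doublets (edgeR adjusted p = 0.176), -4.95 outside subset 5 (edgeR adjusted p = 0.186) and -5.16 with at most 10% mitochondrial UMIs (edgeR adjusted p = 0.424). acta2 was at 7.04 with at most 10% mitochondrial UMIs (edgeR adjusted p = 0.237) and 6.84 outside the lymphatic-like subset (edgeR adjusted p = 0.242). Over all settings in which they were tested, cxcl12a lay between -6.63 and -2.995 with adjusted p of up to 0.424, and acta2 between 2.50 and 7.695 with adjusted p of up to 0.419.

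cxcl12a had 120, 24 and 5 UMIs in clofv087b/+ sham, 3 dpa and 7 dpa, and 91, 140 and 2 in WT. Both 7 dpa libraries lay below the other 4, and the effect was -5.30 (SE 0.72, edgeR adjusted p = 0.032). The gene belongs to the lymphatic-like subset, which had no cell at 7 dpa. That was 0 of 59 cells in clofv087b/+ (upper bound 6.06%) and 0 of 27 in WT (upper bound 12.8%). At sham it was 3 of 51 (1.23 to 16.2%) and 2 of 19 (1.30 to 33.1%), so the intervals overlapped in both genotypes. cdh6 had 19, 15 and 0 UMIs in clofv087b/+ and 12, 143 and 0 in WT, and hapln3 28, 7 and 0 in clofv087b/+ and 9, 48 and 0 in WT. Against the floor of 3 UMIs per library, cdh6 was at least 6.09-fold lower at 7 dpa than at sham in clofv087b/+ and at least 7.38-fold lower in WT. All 7 lymphatic genes tested were lower at 7 dpa, with a median of -3.68 against 0.02 over all genes, cxcl12a being the only one past the threshold. They mark the same few cells and are not independent of each other. In the wider set all 6 tested were lower, with a median of -1.75 and none past the threshold. Endothelial barcodes with at least 2 lymphatic genes went from 1.07% at sham to 0.462% at 7 dpa in clofv087b/+. In WT they went from 0.281 to 0.812%. esm1 had 76, 9 and 1 UMIs in clofv087b/+ and 16, 0 and 1 in WT, 61.2% of them in 1 cell.

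acta2, smooth muscle actin, had 2, 0 and 279 UMIs in clofv087b/+ sham, 3 dpa and 7 dpa, and 0, 0 and 26 in WT, an effect of 7.04 (SE 0.835, edgeR adjusted p = 0.032). Of its UMIs, 68.1% lay in 1 cell and 7 of the 196 cells held them all. acta1a, a skeletal and cardiac actin gene, had 0, 0 and 75 UMIs in clofv087b/+ and 0, 1 and 30 in WT, with 69.8% in 1 cell. tagln, a gene of the smooth muscle cytoskeleton, had 2, 0 and 36 UMIs in clofv087b/+ and 3, 1 and 60 in WT. Summed over the 12 mural markers, all detected, vessel cells held 105, 133 and 1154 CPM in clofv087b/+ and 49.4, 104 and 552 CPM in WT, and outside subset 5 between 117 and 165 CPM in clofv087b/+ and between 49.4 and 172 CPM in WT. The part of muscle RNA or doublets in these values was not tested. Subset 5 held 289 of the acta2 UMIs, and subset 1 held 18. With subset 5 or likely doublets left out acta2 was not called, and no fold of it is given there. Leaving out the lymphatic-like subset or cells above 10% mitochondrial UMIs also ended the call.

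f13a1a.1, a gene of the fibrin crosslinking factor XIII, was spread over more cells than the actin genes. It had 1, 0 and 51 UMIs in clofv087b/+ sham, 3 dpa and 7 dpa, and 0, 0 and 13 in WT, with at most 6.15% of them in 1 cell. The effect was 5.56 (SE 1.01, edgeR adjusted p = 0.152), and in the wider set 5.90 (edgeR adjusted p = 0.0063). Endocardial cells of the same libraries had 7.35, 0 and 149 CPM in clofv087b/+ and 0.829, 0 and 208 CPM in WT, the same course. At 7 dpa its level was 174 and 69.6 CPM in vessel cells of clofv087b/+ and WT, against 154 CPM (58 UMIs) and 85.9 CPM (35 UMIs) in 89 and 62 erythrocyte barcodes of the same libraries. Erythrocyte barcodes of the other 4 libraries had 0 UMIs of it, in 1 to 26 barcodes. The vessel level thus lay near that of cells that should lack the gene, and the part of free RNA was not tested. The 7 basement membrane genes tested were all higher at 7 dpa, with a median of 0.92 and none past the threshold. col4a1 had 471, 942 and 664 CPM in clofv087b/+ sham, 3 dpa and 7 dpa and 554, 862 and 1082 CPM in WT, with each injured library above both sham libraries. In the wider set 12 of 13 were higher, with a median of 1.00, and col1a1a, a gene of fibroblast collagen, passed the threshold at 3.95 (edgeR adjusted p = 0.033). In that set all 8 fibroblast and epicardial markers tested were higher at 7 dpa (median 2.51), and the part of RNA from such cells was not tested.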

How the data were processed

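The deposited matrices hold whole-number UMI counts per gene and barcode, made by the authors from Chromium 3' v3.1 libraries. The submitters' processing notes name Cell Ranger 3.0.2, Seurat 3.1.4 and the GRCz11 build, and give no order or settings. The 27771 gene identifiers were summed to 27081 symbols, 528 of which have several identifiers.

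Counts were read with pandas 2.3.3 and scipy 1.17.1 in Python 3.11.15 and summed over the chosen cells of each library. The sums were tested with edgeR 4.0.16 in R 4.3.3 (quasi-likelihood, robust, TMM scaling, filterByExpr, genotype and stage as terms, Benjamini-Hochberg adjustment, threshold 0.05). The 6 libraries leave 2 residual degrees of freedom. Each group is 1 library, so p-values measure the spread that an additive model leaves between these libraries. The SE given with an effect is the absolute log2 fold divided by the square root of the quasi-likelihood F statistic. It is not a standard error estimated by edgeR. DESeq2 1.42.0 was an alternative. List medians are over 2071 tested genes that the rule did not use. The fit was also run on simulated counts that gave all genes the same dispersion. Its outcome is not given here, and no count above rests on it. Alternatives changed the scaling, the filter, the limits of the rule, doublets and depth, or left out each library.

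Doublets were ranked by Scrublet in scanpy 1.11.5, at 0.8% per 1000 barcodes. Subsets are Leiden clusters (2000 variable genes, 30 components, 15 neighbours, resolution 0.5). Erythrocyte barcodes had at least 50% haemoglobin UMIs. Named genes had at least 50 UMIs, a name that is not a clone's and one sign in every pair of libraries. Genes past the threshold came first, then up to 3 each way with the largest smaller ratio (10 CPM added), and against endocardial cells 15 each way. Other genes named are members of the lists or of the cell type markers, or were chosen after their values were seen. The cells and lists were chosen with earlier results of these data known. Some genes that these rules or lists name are not reported here.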

Additional observations from a re-analysis of the deposited data

Results flagged for a closer look

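The log2 ratio of the vessel cell share, clofv087b/+ over WT, was 1.77 at sham and 0.98 at 7 dpa, but -1.04 at 3 dpa. These opposite directions rest on 1 library per genotype and stage, and the difference between stages was not tested. clofv087b/+ 3 dpa, the lowest share, held 13 vessel cells, and 707 endothelial barcodes, against 27 and 751 in WT 3 dpa.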

How the results depend on the processing

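The genotype count of 0 became 5 with no filter on low counts and lay between 0 and 167 when each library was left out, with 167 without either 3 dpa library and 4 without either 7 dpa library. The 3 dpa count of 0 became 5 with library totals, 51 with DESeq2, 49 with no filter, 35 thinned to 1000 UMIs, 223 with aqp8a.1 allowed and 7 outside subset 5. Leaving out each library gave 5 to 348. The 7 dpa count of 3 became 7 with DESeq2, 21 with no filter, 5 with at least 3 plvapb UMIs and 7 with aqp8a.1 allowed. It became 0 with at most 10% mitochondrial UMIs, likely doublets removed, both 3 dpa libraries left out, and outside the lymphatic-like subset, subset 5 or both. Leaving out each library gave 2 to 142. Leaving out 1 library leaves its stage with 1 library, which its own stage term fits exactly. The counts with 1 library left out are therefore no evidence of effects, and no conclusion is drawn from them. The cause of the other changes was not tested.

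The 3 dpa over sham ratio of the share, -1.97 in clofv087b/+, was -0.64 over endothelial barcodes. In WT, at 0.84, it was 2.01 over endothelial barcodes, 1.94 over these thinned, and -0.30 with aqp8a.1 allowed. The cycling share, unthinned, was 76.5 and 45.8% in clofv087b/+ sham and 7 dpa, and 73.7, 63.0 and 51.9% in WT sham, 3 dpa and 7 dpa. At a minimum of 1 UMI it was 55.1, 45.6, 63.2, 63.0 and 46.2% in these libraries. Without hmgb2a and hmgn2 it was 0% in both sham libraries, and 11.11 and 3.85% in WT 3 dpa and 7 dpa. The genotype effect of vim reversed to 0.58 with at least 3 plvapb UMIs and 0.26 with aqp8a.1 allowed. At 3 dpa the median of all genes was 0.13 with TMM, 0.07 with DESeq2 size factors and 0.49 with library totals.

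Each group has 1 library, so its replicate number adds no pair. The stage pairs the genotypes in the fit and in the exact test of the share. Depth limits most results: 13 cells stand for clofv087b/+ 3 dpa.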
